A study of Capra hircus with 90 samples.

Results

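The ventral respiratory column (VRC) of goats was compared after 3 h of 6% inspired CO2 and after 24 h of room air. By their titles, 12 of the 90 libraries belong to this comparison, 6 in each group. Every gene that passed a filter on low counts was tested, and levels were then set against those of goats kept in room air for 7 d. The study took punches of frozen brainstem from adult outbred female goats, at least 2 years old and assigned to exposures at random, and each library is a bulk RNA sample of 1 punch. The punch of the VRC was taken 2 to 4 mm rostral to the obex so as to include the pre-Bötzinger complex and the nucleus ambiguus.

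The groups used were 6 goats breathing 6% CO2 for 3 h, 6 breathing 6% CO2 for 24 h, 6 housed in room air for 24 h and another 6 housed in room air for 7 d. The first 3 of these groups formed batch 1 of extraction and sequencing, and the 7 d goats were in batch 2. Fits of all 30 VRC libraries and ranks over 15 groups also held 6 goats breathing 6% CO2 for 7 d, in batch 2. Comparisons between sites also used punches of other brainstem sites. No goats were kept in room air for just 3 h, and the study's design names those of 24 h as the baseline. The labels name no genetic change in any group. Each library is a different goat within a site, so the spread between libraries is a spread between animals. In such bulk tissue, fewer cells of a type and less RNA per cell cannot be told apart.

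The VRC is a column of the ventrolateral medulla that generates the rhythm of breathing and drives the respiratory motor pools. Breathing CO2 raises carbon dioxide and acid in blood and brain, which increases ventilation and widens brain vessels. EGLN1 (also called PHD2) is the main enzyme that hydroxylates hypoxia-inducible factors when oxygen is present, which leads to their destruction, and the VEGF ligands act on receptors of blood and lymph vessels.

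The 3 h libraries held 17.1 to 23.3 M counts, the 24 h room-air libraries 12.3 to 27.9 M and the 7 d room-air libraries 22.9 to 34.5 M. Levels are given in CPM, read counts scaled to the size of each library with TMM factors. No pair of the 12 compared libraries was a duplicate, with correlations of log levels of 0.946 to 0.976. Among the 18 VRC libraries of batch 1, number 6 of 24 h room air lay farthest from the others along the second axis of a principal component analysis (9.81% of variance). Only 2 of 15 neuron markers, GABRB2 and PRPH, could be linked to a symbol, so the neuronal content of the punches was hardly checked here.

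After 3 h of CO2, EGLN1 and VEGFB were lower than after 24 h of room air, and no gene was higher past the threshold. These were 2 of 15424 genes tested, or 0.013%, both lower, at an adjusted p under 0.05 by edgeR's quasi-likelihood test with Benjamini-Hochberg adjustment. An unadjusted p under 0.05 was reached by 2006 genes, or 13%, of which 975 (6.32%) were higher and 1031 (6.68%) lower after CO2, and 771 would be reached by the threshold alone if no gene differed. All 6 libraries after CO2 lay above all 6 of room air in 47 genes (0.305%) and below them in 39 (0.253%). Across all genes the median absolute log2 difference was 0.15, and 90% of genes differed by less than 0.47.

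EGLN1 was at 41.8, 47.4, 65.2, 31.3, 39.8 and 41.9 CPM in the 6 libraries after 3 h of CO2, against 81.7, 85.6, 80.4, 85.5, 59.3 and 80.4 CPM after 24 h of room air. A single library on each side crosses over: number 3 of the CO2 group lies above number 5 of room air, and all others are separate. The log2 difference was -0.82 (SE 0.13, adjusted p = 0.0140), with means of 44.6 ± 11.4 CPM after 3 h of CO2 and 78.8 ± 9.9 CPM in room air (SD, n = 6 each). EGLN1 is not listed in the authors' deposited table for this comparison.

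VEGFB, a VEGF ligand that binds the receptor FLT1, was at 12.9, 20.8, 22.1, 15.6, 15.3 and 16.2 CPM after 3 h of CO2, against 29.4, 28.8, 39.0, 30.5, 30.2 and 34.5 CPM in room air. The groups did not overlap. The means were 17.2 ± 3.5 CPM after CO2 and 32.1 ± 4.0 CPM in room air, and the log2 difference was -0.89 (SE 0.14, adjusted p = 0.0140).

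VEGFA, the chief growth factor of blood vessels and a known target of hypoxia-inducible factors, was at 41.1, 20.1, 28.8, 34.2, 25.6 and 39.3 CPM after 3 h of CO2, against 61.1, 61.8, 59.4, 50.7, 39.2 and 60.1 CPM in room air. Only number 5 of room air lay within the range of the CO2 group. The means were 31.5 ± 8.2 CPM after CO2 and 55.4 ± 8.9 CPM in room air, and the log2 difference was -0.83 (SE 0.16, adjusted p = 0.0555). VEGFC, the ligand of lymphatic vessel growth, differed the other way, with 8.95 ± 1.94 CPM after CO2 and 6.36 ± 1.80 CPM in room air (log2 difference 0.53, SE 0.19, adjusted p = 0.246). Among 11 VEGF ligands and receptors, these 3 could be linked to a symbol, and 1 of them, VEGFB, passed. Among 32 genes of the HIF pathway, EGLN1 and VEGFA could be linked, and EGLN1 passed.

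**Figure D1:**
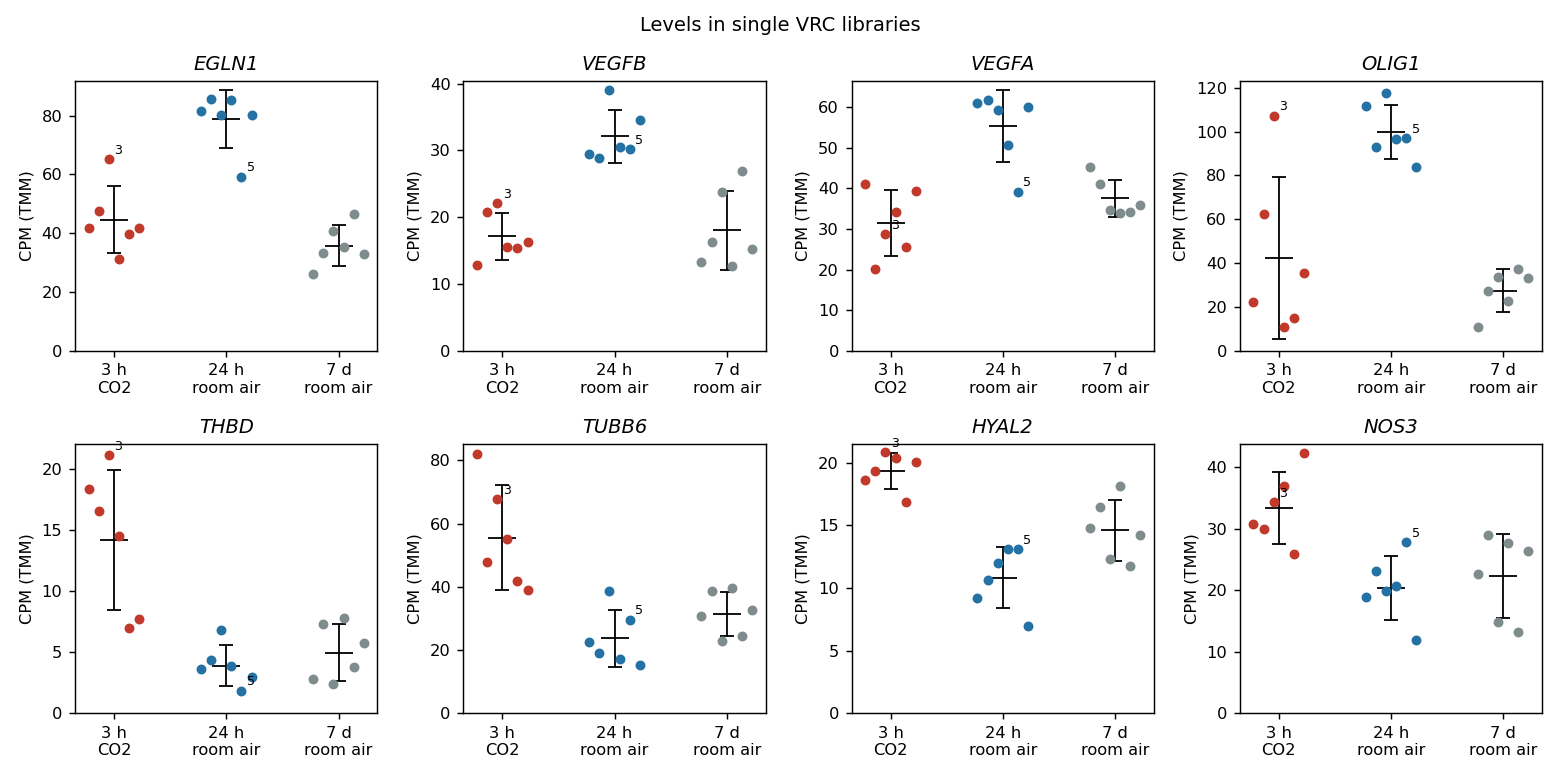
Levels (CPM, TMM-scaled) in single VRC libraries of 8 genes after 3 h of CO2 (red), 24 h of room air (blue) and 7 d of room air (grey), with mean and SD in black and n = 6 per group. Numbers mark library 3 of the CO2 group and library 5 of 24 h room air. EGLN1, VEGFB, VEGFA and OLIG1 are high in 24 h room air against both other groups, with means of 44.6, 78.8 and 35.8 CPM for EGLN1 from left to right, while THBD, TUBB6, HYAL2 and NOS3 have their highest means after CO2.

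THBD, TUBB6 and HYAL2 had the lowest p among the higher genes with a symbol, and none of them passed the threshold. THBD encodes thrombomodulin, the endothelial receptor that binds thrombin. It was at 18.3, 16.5, 21.1, 14.5, 6.94 and 7.69 CPM after 3 h of CO2, against 3.59, 4.41, 6.79, 3.84, 1.87 and 2.94 CPM in room air. No library of one group reached the range of the other, although numbers 5 and 6 of the CO2 group came close to number 3 of room air. The log2 difference was 1.84 (SE 0.32, adjusted p = 0.0529), with means of 14.2 ± 5.7 CPM after CO2 and 3.91 ± 1.66 CPM in room air.

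TUBB6, a beta-tubulin of microtubules, was at 81.9, 47.9, 67.8, 55.1, 42.0 and 39.0 CPM after 3 h of CO2, against 22.6, 18.9, 38.8, 17.2, 29.6 and 15.2 CPM in room air. The groups touch without overlap at the lowest CO2 library and the highest room-air library. The log2 difference was 1.25 (SE 0.24, adjusted p = 0.0555). HYAL2, a hyaluronidase anchored to the cell surface, was at 16.9 to 20.8 CPM after CO2 with a median of 19.7, against 6.97 to 13.1 CPM in room air with a median of 11.3. The groups did not overlap, with means of 19.35 ± 1.44 CPM after CO2 and 10.8 ± 2.4 CPM in room air and a log2 difference of 0.86 (SE 0.17, adjusted p = 0.0555).

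These 3 genes and VEGFA passed in several other fits of the same counts. Across 12 other settings, which change the tool, filter, scaling or libraries in the fit, THBD passed in 7, TUBB6 in 6, HYAL2 in 5 and VEGFA in 4. With each of the 12 libraries left out in turn they passed in 5, 3, 2 and 2 of 12 fits, in that order. EGLN1 passed in 10 and VEGFB in 12 of the 12 other settings, and both passed in all 12 fits without 1 library. The authors' deposited table, from a likelihood ratio fit over all 90 libraries, lists 12 entries for this comparison, 8 higher and 4 lower. In the authors' deposited table TUBB6 has an adjusted p of 7.04e-05, VEGFA, HYAL2 and THBD 0.000405 each, and VEGFB 0.0304.

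The other higher genes named by rule, which takes in each direction the 12 of lowest p among symbols that average 1 CPM or more, had adjusted p of 0.1003 to 0.287. NOS3, the endothelial nitric oxide synthase, was at 25.8 to 42.2 CPM after CO2 with a median of 32.5, against 11.9 to 27.7 CPM in room air with a median of 20.2 (log2 difference 0.73, SE 0.21, adjusted p = 0.157). Only number 5 of room air reached into the CO2 range. ACVRL1, the endothelial receptor ALK1 for bone morphogenetic proteins, averaged 22.1 ± 4.7 CPM after CO2 and 14.5 ± 4.4 CPM in room air (log2 difference 0.60, SE 0.23, adjusted p = 0.287). CD1D, which presents lipid antigens, was at 3.06 to 5.61 CPM after CO2, against 1.95 to 3.00 CPM in room air, with no overlap (log2 difference 0.74, SE 0.28, adjusted p = 0.272).

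GRP encodes gastrin-releasing peptide, which in rodents acts on the pre-Bötzinger complex and evokes sighs. It was at 0.868 to 2.80 CPM after CO2 with a median of 2.28, against 0.651 to 1.10 CPM in room air with a median of 0.954. All CO2 libraries except number 3 lay above every room-air library, and the log2 difference was 1.13 (SE 0.29, adjusted p = 0.119). ROPN1L, a protein of the radial spokes of motile cilia, M1AP, a meiosis protein, TXN, the redox protein thioredoxin, and GNG3, a G protein gamma subunit of neurons, had log2 differences of 0.56, 0.46, 0.39 and 0.30.

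**Figure D2:**
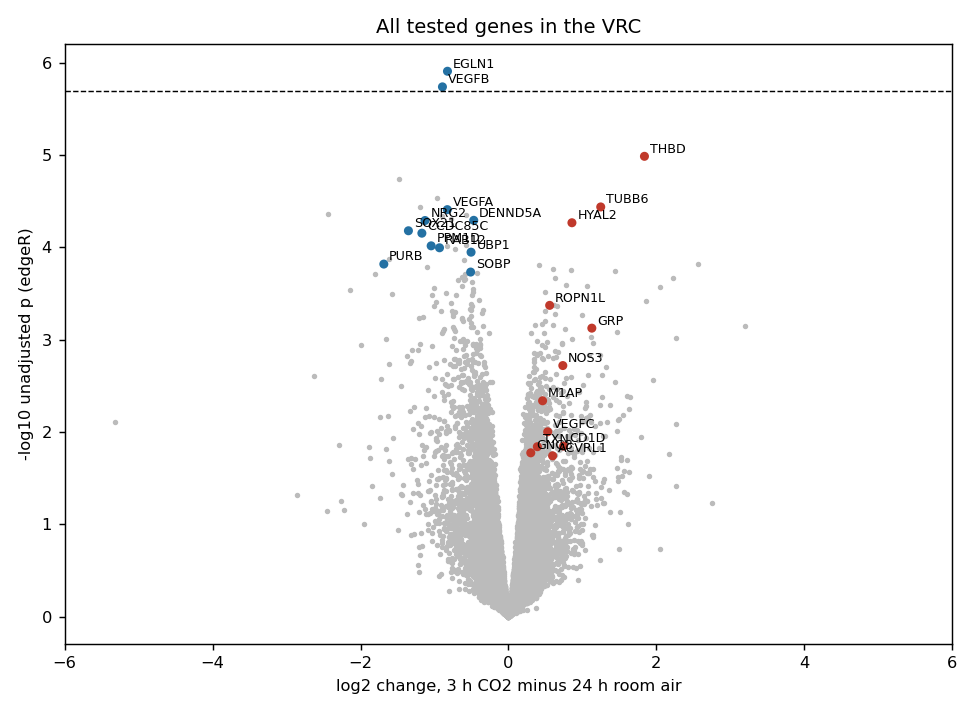
Log2 difference (3 h CO2 minus 24 h room air, horizontal) against the unadjusted p on a -log10 scale (edgeR, vertical) for the 15424 genes tested in the VRC. Coloured points are the 12 higher (red) and 12 lower (blue) genes named by rule, the other genes are grey, and the dashed line is drawn just below the largest p of the genes that passed an adjusted p of 0.05, which only EGLN1 and VEGFB did.

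The 12 lower named genes had adjusted p of 0.0140 to 0.0830. NRG2, a neuregulin ligand of ErbB receptors, was at 5.10 to 15.9 CPM after CO2 with a median of 6.51, against 14.4 to 23.0 CPM in room air with a median of 19.0 (log2 difference -1.13, SE 0.23, adjusted p = 0.0555). SOX21, a transcription factor of neural progenitors, averaged 2.26 ± 1.42 CPM after CO2 and 5.91 ± 1.21 CPM in room air (log2 difference -1.35, SE 0.28, adjusted p = 0.0635). PPM1D, a phosphatase induced by p53 that shuts down its signalling, averaged 10.3 ± 5.4 CPM after CO2 and 21.3 ± 4.5 CPM in room air (log2 difference -1.05, SE 0.22, adjusted p = 0.0736). In each of these 3 genes it was number 3 of the CO2 group that reached into the room-air range.

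RAB12, a small GTPase of membrane traffic, was at 9.22, 11.2, 25.0, 9.93, 9.79 and 11.9 CPM after CO2, against 23.1, 25.5, 26.3, 28.3, 23.3 and 22.0 CPM in room air. Number 3 of the CO2 group again stood at the level of room air while the other 5 lay at about the same lower level. The log2 difference was -0.93 (SE 0.20, adjusted p = 0.0736). DENND5A, an exchange factor that activates Rab GTPases, averaged 266 ± 30 CPM after CO2 and 369 ± 56 CPM in room air (log2 difference -0.47, SE 0.09, adjusted p = 0.0555). CCDC85C, UBP1, PURB and SOBP completed the lower genes, with log2 differences of -1.17, -0.51, -1.69 and -0.51. Of the genes without a symbol, those of lowest p were named in each direction. On the lower side ENSCHIG00000014119 averaged 1.98 ± 0.87 CPM after CO2 and 5.67 ± 1.67 CPM in room air (log2 difference -1.49, SE 0.27, adjusted p = 0.0555). ENSCHIG00000005545 averaged 27.8 ± 10.5 CPM after CO2 and 54.8 ± 6.56 CPM in room air (log2 difference -0.97, SE 0.18, adjusted p = 0.0555). On the higher side ENSCHIG00000015913 averaged 0.939 ± 0.439 CPM after CO2 and 0.134 ± 0.136 CPM in room air (log2 difference 2.57, SE 0.59, adjusted p = 0.0830), and ENSCHIG00000011183 averaged 85.8 ± 7.4 CPM after CO2 and 64.4 ± 9.8 CPM in room air (log2 difference 0.42, SE 0.09, adjusted p = 0.0830).

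OLIG1 and OLIG2, transcription factors of the oligodendrocyte lineage, were not named by the rule for their p. In both, number 3 of the CO2 group again lay within the room-air range. In OLIG2 number 2 of that group also did, at 15.7 CPM, as number 6 of room air was at 12.2 CPM. OLIG1 was at 22.3, 62.3, 107, 11.0, 15.1 and 35.5 CPM after CO2, against 111, 92.9, 117, 96.5, 96.9 and 83.8 CPM in room air (log2 difference -1.23, SE 0.41, adjusted p = 0.2403). Number 3 of the CO2 group was at the room-air level and number 2 between the groups, while the other 4 were far below. Without number 3, a library picked after its effect was seen, OLIG1 had an adjusted p of 0.0147 and OLIG2 one of 0.0134 by edgeR. Of the 12 fits without 1 library, both passed in this 1 only. Both passed in 0 of the 12 other settings, so neither is counted as a difference. These 2 were the linked members of 11 oligodendrocyte markers, and their summed level ran from 17.1 to 135 CPM after CO2 with a median of 39.2, against 96.0 to 146 CPM in room air with a median of 122. After 24 h of CO2 it ran from 21.4 to 45.6 CPM, and in 7 d room air from 13.5 to 47.3 CPM. The part of this marker level in the lower levels of EGLN1 and VEGFB was not tested.

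Number 3 of the CO2 group had the highest of the 6 values in 10 of the 12 lower named genes, against 33.9% of the 1031 genes lower at an unadjusted p under 0.05 and 17.7% of all genes tested. Number 5 of room air had the lowest of its 6 in 7 of the 12, against 31.7% of those 1031 genes and 19% of all genes. That library had the lowest depth of the compared libraries, at 12.3 M counts, and the part of depth was not tested. Without number 3 of the CO2 group 180 genes passed, 20 higher and 160 lower, and without number 5 of room air 78 passed, 40 higher and 38 lower. Without any other single library 2 to 4 genes passed, and the 4 came from leaving out room-air library 3 or room-air library 6. These are fits with a library chosen by its effect on the count, so the count of 2 from all libraries stands as the result.

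**Figure D3:**
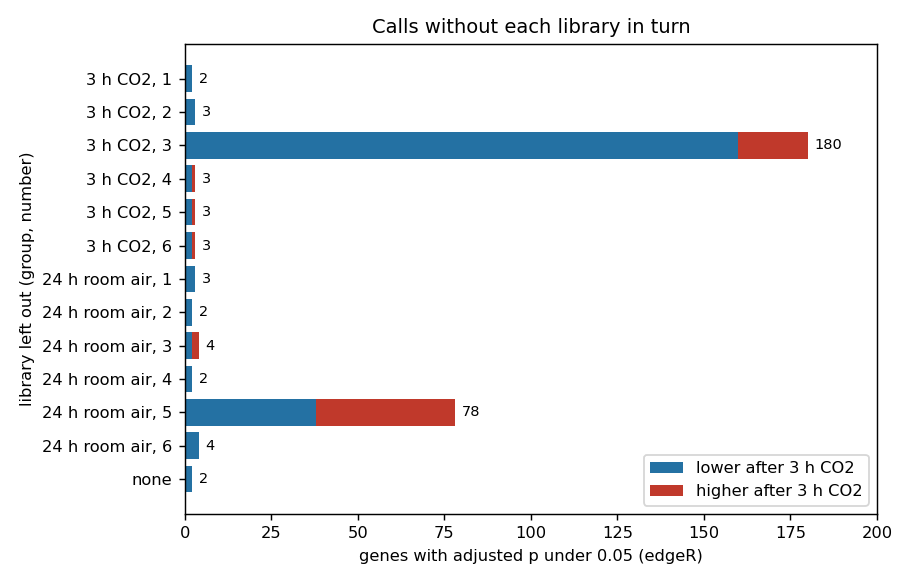
Number of genes with an adjusted p under 0.05 (edgeR) when each of the 12 libraries is left out in turn, split into lower (blue) and higher (red) after 3 h of CO2. The bars for number 3 of the CO2 group (180 genes) and number 5 of 24 h room air (78 genes) stand far above the rest, and with no library left out 2 genes passed.

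Lists of related genes were described by their counts, beside 6.68% of all genes lower and 6.32% higher at an unadjusted p under 0.05 and a median log2 difference of -0.0033 over all genes. Only genes with a linked symbol can be counted in a list, and of the 229 linked genes tested 92 were lower and 18 higher at that p. No list had a member past the adjusted threshold apart from EGLN1 and VEGFB. The symbols that could be linked are those of genes the authors had listed for some site and exposure of this series. Counts of linked members in a list are therefore not comparable with the shares over all genes, and are no independent evidence. The authors' deposited tables hold 12 entries for the VRC after 3 h and 115 for the VRC after 24 h of CO2, and their other entries are for the NTS and the RTN. All 12 of the lower named genes were listed for the VRC after 24 h of CO2 against the same room-air libraries, so their direction is no independent evidence.

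Of 18 genes that shear stress or KLF factors induce in endothelium, 4 could be linked, THBD, HYAL2, NOS3 and ACVRL1. All 4 had an unadjusted p under 0.05 with higher levels after CO2 (median log2 difference 0.80). The authors list THBD and HYAL2 for this comparison on the same libraries, so their direction is no independent evidence. NOS3 and ACVRL1 could be linked because the authors listed them for some site and exposure of this series. The list was also chosen with earlier results of these data known, so the count of 4 is no independent evidence either. Endothelial markers differed in both directions: 6 of 15 could be linked, and 3 were higher and 1 lower at that p. FOXQ1, an endothelial transcription factor of brain vessels, averaged 0.694 ± 0.466 CPM after CO2 and 1.66 ± 0.50 CPM in room air (log2 difference -1.23, SE 0.34, adjusted p = 0.141). MEOX2, another vessel factor, averaged 1.47 ± 0.62 CPM after CO2 and 2.51 ± 1.12 CPM in room air, and ACKR1, a chemokine receptor of venules, 11.8 ± 2.2 CPM after CO2 and 7.20 ± 1.22 CPM in room air. The summed level of the 6 markers, in which NOS3 and ACVRL1 weigh most, ran from 65.6 to 99.3 CPM after CO2, against 32.6 to 59.9 CPM in room air and 35.7 to 66.8 CPM in 7 d room air. THBD, NOS3 and ACVRL1 had been named for higher levels after CO2 and enter this sum, so the sum is no separate measure of endothelial content. The part of endothelial content in the higher levels of THBD and NOS3 was not tested.

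Growth and receptor signalling genes NRG2, AKT1, STK11, LATS2 and NCK2 were 5 of 15 in that list and all had an unadjusted p under 0.05 with lower levels after CO2 (median log2 difference -0.68). AKT1, the kinase of insulin and growth factor signalling, averaged 39.9 ± 24.3 CPM after CO2 and 70.6 ± 11.6 CPM in room air, and NCK2, an adaptor protein of growth factor receptors, 23.9 ± 7.1 CPM after CO2 and 38.5 ± 6.1 CPM in room air. Of 12 Wnt pathway genes 4 could be linked, CCDC85C, DACT3, APCDD1 and RHOU. All 4 were likewise lower at that p, with a median of -0.89. The members of both lists could be linked only because the authors had listed them in this series, so these counts are no independent evidence. DACT3 and APCDD1, inhibitors of Wnt signalling, averaged 25.0 ± 13.6 and 40.7 ± 17.5 CPM after CO2, against 47.4 ± 11.4 and 75.4 ± 18.9 CPM in room air.

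Of 12 p53 targets 4 could be linked. PPM1D, PHLDA3 and ACER2 were lower at an unadjusted p under 0.05. BAX, the apoptosis effector, averaged 22.2 ± 2.3 CPM after CO2 and 22.2 ± 4.6 CPM in room air. Of 12 genes of vesicle traffic and autophagy 6 could be linked, and 5 of the 6 were lower at that p. The sixth, MAP1LC3A, had a log2 difference of -0.06 (SE 0.11). LRP3 and LRP8, the 2 linked of 8 genes of the LDL receptor family, were lower at that p. NR1D2, the clock repressor REV-ERB beta and the 1 linked of 15 clock genes, averaged 36.9 ± 12.7 CPM after CO2 and 54.5 ± 11.7 CPM in room air.

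The linked ribosomal protein genes, 13 of 77, had log2 differences of 0.13 to 0.35 with a median of 0.18, and none had an unadjusted p under 0.05. The linked nuclear genes of oxidative phosphorylation, 10 of 59, had differences of 0.05 to 0.41 with a median of 0.21, and 1, NDUFA6 of complex I, had an unadjusted p under 0.05. Microglial and myeloid markers were close between groups, with 4 of 13 linked and sums of 99.6 to 156 CPM after CO2, against 101 to 141 CPM in room air. TTR, the transthyretin of choroid plexus and the one linked member of 6 markers of that tissue, was at 1.56 to 34.1 CPM after CO2 with a median of 9.49, against 0.482 to 2.58 CPM in room air with a median of 1.99 (log2 difference 2.75, SE 1.35, adjusted p = 0.404). The part of choroid plexus RNA in other differences was not tested. Lists of immediate early genes and of CO2 and proton sensing had no linked member, so they are not described here.

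The authors' deposited table also lists MFAP5, a microfibril protein of connective tissue, GPR179, an orphan receptor known from the retina, RHBDD3, a rhomboid family protein, and OVN. MFAP5 had 24 counts in 4 of the 6 CO2 libraries and 0 in all 6 of room air, and GPR179 had 37 counts in 3 CO2 libraries and 0 in room air. Both were too low for the filter and were not tested. RHBDD3 was at 18.4 to 29.7 CPM after CO2, against 26.9 to 38.2 CPM in room air, and differed by -0.50 (SE 0.12, adjusted p = 0.104). OVN was at 0.109 to 0.371 CPM after CO2, while in room air numbers 6 and 3 had 39.4 and 10.1 CPM and the other 4 had 0.325 to 0.837 CPM, so 2 goats set its log2 difference of -5.31 (SE 1.80, adjusted p = 0.239).

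Set against goats kept in room air for 7 d, the lower and the higher genes differed. The lower named genes had means after CO2 that were nearer to those of 7 d than to those of 24 h room air. EGLN1 averaged 44.6 ± 11.4 CPM after 3 h of CO2, against 78.8 ± 9.9 CPM in 24 h room air and 35.8 ± 7.0 CPM in 7 d room air. VEGFB averaged 17.2 ± 3.5 CPM after 3 h of CO2, against 32.1 ± 4.0 CPM in 24 h room air and 18.02 ± 5.87 CPM in 7 d room air. OLIG1 averaged 42.2 ± 36.8 CPM after CO2, against 99.8 ± 12.4 CPM in 24 h room air and 27.5 ± 9.7 CPM in 7 d room air.

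In these genes the 24 h room-air group stood apart. In all 12 lower named genes the 24 h room-air VRC had the highest mean of the 15 groups of the series. These genes were chosen as higher in that group than after 3 h of CO2, which favours such a rank. The rank was not counted over all genes. Between the room-air groups, 24 h minus 7 d, 757 of 15769 genes (4.8%) passed, 487 (3.09%) higher and 270 (1.71%) lower at 24 h, in a fit of all 30 VRC libraries. On the log2 scale, 24 h exceeded 7 d by 1.14 for EGLN1 (SE 0.16, adjusted p = 8.79e-05), by 0.83 for VEGFB (SE 0.17, adjusted p = 0.00339), and by 0.49 to 2.13 over the 12 lower named genes. This comparison and that of 3 h CO2 use the same 24 h room-air libraries. Time of housing and batch cannot be told apart between the room-air groups. The excess of the 24 h over the 7 d room-air level in the VRC, less the mean of the same in the nucleus of the solitary tract (NTS) and the retrotrapezoid nucleus (RTN), passed in 0 of 16630 genes (0%) by edgeR. An unadjusted p under 0.05 was reached by 811 genes (4.88%), and DESeq2 called 2. For EGLN1 this excess was 0.86 (SE 0.25, adjusted p = 0.423). In a fit of each other site by itself, 24 h and 7 d of room air differed in 2363 of 15876 genes (14.9%) in the RTN. In the NTS they differed in 129 of 16047 genes (0.804%).

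Directly between 3 h of CO2 and 7 d of room air, 1747 genes (11.1%) passed, 798 (5.06%) higher and 949 (6.02%) lower after CO2, with exposure, time and batch all different. EGLN1 differed by 0.32 (SE 0.16, adjusted p = 0.1996), VEGFB by -0.07 (SE 0.17, adjusted p = 0.843) and VEGFA by -0.26 (SE 0.15, adjusted p = 0.260). Over the 12 lower named genes the differences ran from -0.26 to 0.55 with a median of 0.13, and the lowest adjusted p was 0.0966.

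The leading higher genes had higher means than in either room-air group. They had been named for high levels in the same 3 h libraries, so the tests against 7 d are no independent evidence. THBD averaged 14.2 ± 5.7 CPM after 3 h of CO2, against 3.91 ± 1.66 CPM in 24 h and 4.98 ± 2.32 CPM in 7 d room air, and was higher than at 7 d by 1.51 (SE 0.31, adjusted p = 0.00254). TUBB6 averaged 55.6 ± 16.5 CPM after CO2, against 23.7 ± 9.0 CPM in 24 h and 31.5 ± 7.0 CPM in 7 d room air (difference to 7 d 0.82, SE 0.22, adjusted p = 0.0160). VEGFC and TXN were also higher than at 7 d, by 0.80 (SE 0.20, adjusted p = 0.0109) and 0.64 (SE 0.15, adjusted p = 0.00719). The difference to 7 d was 0.41 for HYAL2 (SE 0.15, adjusted p = 0.0775) and 0.58 for NOS3 (SE 0.22, adjusted p = 0.0794), and neither passed. RHBDD3 was lower than at 7 d (log2 difference -0.58, SE 0.13, adjusted p = 0.00468), with 23.7 ± 3.7 CPM after CO2 and 35.5 ± 6.8 CPM in 7 d room air. CD1D averaged 4.25 ± 1.03 CPM after CO2 and 5.01 ± 1.68 CPM in 7 d room air, a difference of -0.24 that did not pass.

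Over all 15424 genes, the 3 h CO2 mean lay nearer to 7 d room air than the 24 h room-air mean did in 42.1%. The share was 47.9% of the 1031 genes lower and 28.7% of the 975 higher at an unadjusted p under 0.05. Of the named genes it was 12 of 12 lower and 2 of 12 higher, HYAL2 and CD1D. The shares compare means that have the 24 h room-air libraries in common and carry no test, and the named lower genes had been listed by the authors on the same libraries.

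**Figure D4:**
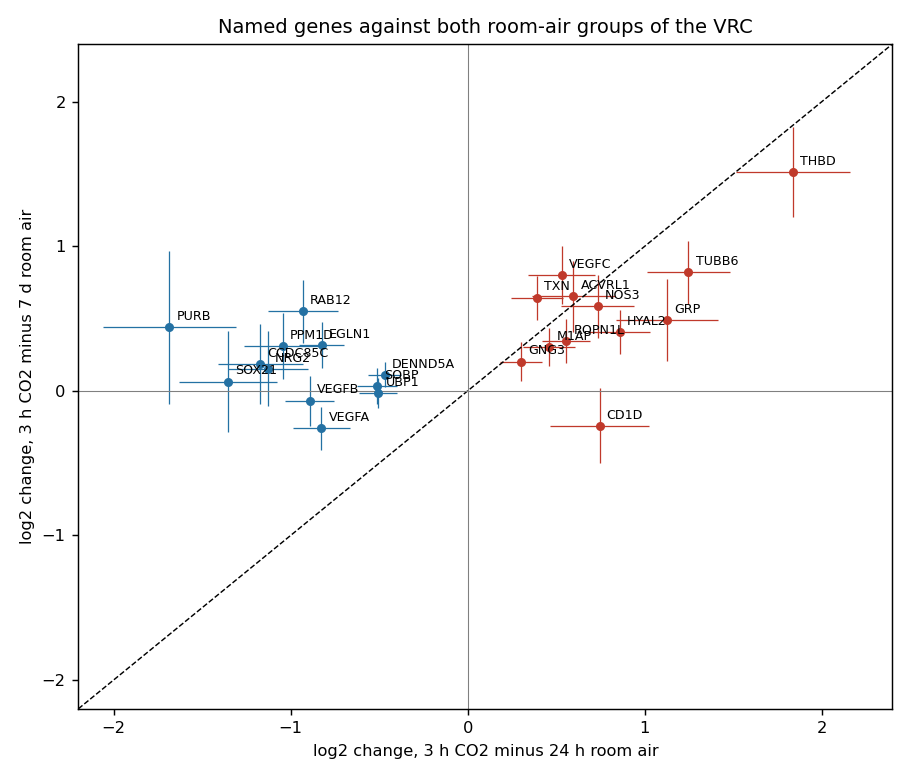
Log2 difference of the 24 named genes between 3 h of CO2 and 24 h of room air (horizontal) and between 3 h of CO2 and 7 d of room air (vertical), with SE bars, and the line of equal differences dashed. The 3 h libraries enter both axes. Lower genes (blue) lie near 0 on the vertical axis, from -0.26 to 0.55, and THBD, at 1.84 and 1.51, lies farthest along the dashed line among the higher genes (red).

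The same genes were set beside goats of the same batch after 24 h of CO2. EGLN1 averaged 44.6 ± 11.4 CPM after 3 h and 42.3 ± 3.3 CPM after 24 h of CO2, and VEGFB 17.2 ± 3.5 CPM after 3 h and 19.3 ± 4.1 CPM after 24 h. THBD averaged 14.2 ± 5.7 CPM after 3 h and 5.60 ± 2.75 CPM after 24 h, and TUBB6 55.6 ± 16.5 CPM after 3 h and 29.1 ± 8.7 CPM after 24 h. Other higher named genes had like or higher means at 24 h: TXN averaged 278 ± 72 CPM after 3 h and 266 ± 31 CPM after 24 h, M1AP 8.92 ± 1.61 CPM after 3 h and 10.2 ± 1.4 CPM after 24 h, and CD1D 4.25 ± 1.03 CPM after 3 h and 5.85 ± 2.99 CPM after 24 h. Between 3 h and 24 h of CO2 edgeR called 0 of 15424 genes (0%), while 1087 had an unadjusted p under 0.05, so none of these differences was past the threshold.

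The change after 3 h in the VRC was tested against that at the other sites punched from the same goats. It differed from the RTN in 18 of 16339 genes (0.11%), and in all 18 the VRC change was the lower. The count was 2 with the compared groups alone in the fit and 84 with DESeq2. EGLN1 averaged 67.0 ± 15.8 CPM after CO2 and 49.4 ± 6.2 CPM in room air in the RTN, and the VRC change minus the RTN change was -1.27 (log2, SE 0.23, adjusted p = 0.0119). VEGFB averaged 24.5 ± 3.4 CPM after CO2 and 18.4 ± 2.1 CPM in room air in the RTN, with a difference of -1.32 (SE 0.24, adjusted p = 0.0119). After 3 h of CO2, EGLN1 averaged 44.6 ± 11.4 CPM in the VRC, 67.0 ± 15.8 CPM in the RTN and 56.5 ± 18.9 CPM in the NTS. In 24 h room air it averaged 78.8 ± 9.9 CPM in the VRC, 49.4 ± 6.2 CPM in the RTN and 49.7 ± 8.5 CPM in the NTS. The VRC thus had the lowest of the 3 means after CO2 and the highest in room air. Genes with a symbol among the 18 were also RNF157, RDH10, FOXQ1, NRG2, NR1D2, UBP1, TRIM28, LEMD2 and DACT3, with differences of -0.73 to -2.92.

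Against the NTS edgeR called 0 genes (0%), DESeq2 called 54, and 1666 (10.2%) had an unadjusted p under 0.05. Libraries of the same number were taken as the same goat at each site, because their residuals correlated. With the goat as a block 123 genes (0.753%) differed from the RTN, 2 (0.0122%) higher and 121 (0.741%) lower, and 76 (0.465%) from the NTS, 12 (0.0734%) higher and 64 (0.392%) lower. In the blocked fit EGLN1 differed from the RTN by -1.27 (adjusted p = 0.0118) and from the NTS by -1.01 (adjusted p = 0.0365), and VEGFB by -1.34 (adjusted p = 0.000104) and -1.01 (adjusted p = 0.0202). Of the 12 lower named genes 10 differed from the RTN and 7 from the NTS in that fit, and of the 12 higher 0 and 0. The lower genes had been named from the VRC libraries that enter these differences.

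THBD, TUBB6, HYAL2 and VEGFA showed no detectable site difference in either fit. The VRC change minus the RTN change was 0.02 for THBD (SE 0.52), 0.36 for TUBB6 (SE 0.32), 0.39 for HYAL2 (SE 0.22) and -0.19 for VEGFA (SE 0.23). The error for THBD is wide, so these values do not show that the sites respond alike.

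**Figure D5:**
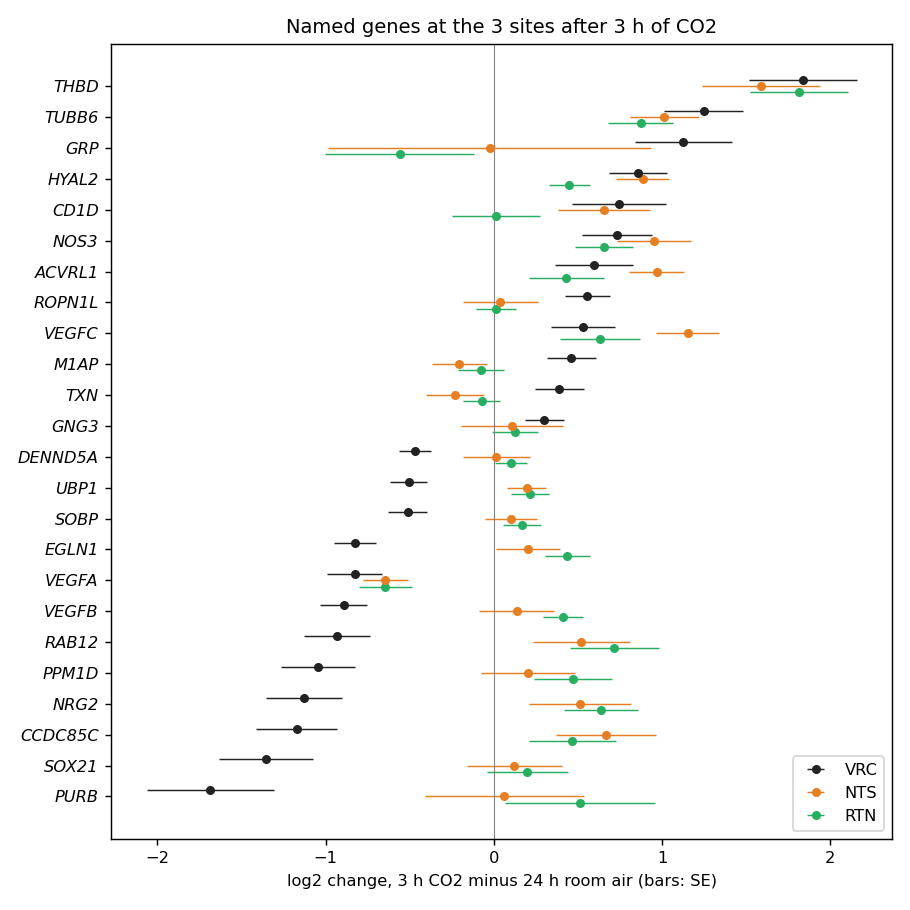
Log2 difference, 3 h CO2 minus 24 h room air, of the 24 named genes in the VRC (black), NTS (orange) and RTN (green), with SE bars. For EGLN1 the VRC value is -0.82 and the RTN value 0.44, and NRG2, CCDC85C and VEGFB also have VRC and RTN values on opposite sides of 0, while THBD, TUBB6, HYAL2 and NOS3 lie above 0 at all sites and VEGFA below 0.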

How the data were processed

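Read counts of 12 VRC libraries were compared, with other libraries of the 90 as context. The submitters' processing notes name fastp (0.24.0), the STAR aligner (2.7.10b), the counter featureCounts (2.0.6) and edgeR (4.6), on RNA amplified with SMART-Seq v4 and Nextera XT kits per the labels' protocols, with no molecular identifiers mentioned and no strand setting given, so overlapping genes on opposite strands may share counts. Which genome and gene models they counted on is not given in the sources read for this. The authors deposited raw counts for 25144 genes, and 0 columns were left out. The authors' deposited gene tables hold log2 fold changes and log2 abundances, a likelihood ratio as a score, and p-values, per the file headers.

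Symbols came from these tables: a likelihood ratio fit over 90 libraries (filterByExpr minimum count 5, 17730 genes) gave each of 342 entries exactly 1 gene of equal log2 abundance (tolerance 0), and 93 identifier entries matched their own identifier. This linked 238 symbols, of which 229 were tested and 222 had a mean of at least 1 CPM.

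The tests ran in edgeR 4.0.16 under R 4.3.3 (TMM, filterByExpr, glmQLFit with robust=TRUE, quasi-likelihood F test, Benjamini-Hochberg, threshold 0.05) on the 18 VRC libraries of batch 1. Site differences used the 54 libraries of batch 1, comparisons with 7 d room air all 30 VRC libraries, and the site contrast of room air all 90. SE is the log2 difference divided by the square root of F. The code was tested on simulated counts. Alternatives were DESeq2 1.42.0, limma 3.58.1 voom, sva 3.50.0, other scalings, filters and libraries, and blocks. The comparison with 24 h of CO2 was added after the data were seen. Named were genes past 0.05, entries of the authors' table for this comparison with a symbol, the 12 of lowest p with a symbol in each direction, and linked members of the lists on HIF, VEGF, endothelium and cell types. OLIG1, OLIG2 and other list members are named under that rule or as members of a described list. Members and lists were chosen with earlier results of these data known.

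Across sites, numbers were taken as goats because residuals of the VRC with the RTN and with the NTS correlated with the same number in all 24 pairs, at 0.122 to 0.329, and best with it in 24 of 24. Between exposures goats differ.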

Additional observations from a re-analysis of the deposited data

Results flagged for a closer look

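In 54 groups of 6 libraries tested for a value far from the rest, 5 stood out by Dixon's criterion, and chance alone gives about 1 in 20. EGLN1 in number 5 of 24 h room air was at 59.3 CPM, against 80.4 to 85.6 CPM in the other 5. Number 3 of the 3 h CO2 group was high for CCDC85C, at 9.80 CPM against 3.12 to 4.63 CPM in the other 5, and for RAB12, at 25.0 CPM against 9.22 to 11.9 CPM. Number 6 of 24 h room air was high for OVN, at 39.4 CPM against 0.325 to 10.1 CPM, and for SOBP, at 52.0 CPM against 33.8 to 40.1 CPM.

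The change after 3 h of CO2 in the VRC differed from that in the RTN, by edgeR's test of the difference, for 4 named genes. This fit did not pair the sites by goat. With the goat as a block, 10 of the 12 lower named genes differed from the RTN. In the fit without the block, the values were as follows. The differences on the log2 scale were -1.27 for EGLN1 (SE 0.23, adjusted p = 0.0119), -1.32 for VEGFB (SE 0.24, adjusted p = 0.0119), -1.78 for NRG2 (SE 0.38, adjusted p = 0.0422) and -0.73 for UBP1 (SE 0.16, adjusted p = 0.0422).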

How the results depend on the processing

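The count of 2 genes in the VRC stayed at 2 with RLE factors, with either other filter (none, or 1 CPM in 6 libraries), with the legacy dispersion and without number 4 of 24 h CO2. It was 121 with DESeq2 (31 higher, 90 lower) and 30 with voom and quality weights (3 higher, 27 lower). A likelihood ratio test on the 90 libraries called 15 (9 higher, 6 lower). With all 30 VRC libraries it was 10 (3 higher, 7 lower), and with 1 surrogate variable 4 (2 higher, 2 lower). A fit of the compared groups alone called 3, of which 2 were higher, THBD among them, and 1, VEGFB, was lower. It was 95 when the replicate number was a block (20 higher, 75 lower). Leaving out 1 library gave 2 to 180. The block is not backed by the data: residuals of same-numbered 3 h and room-air libraries correlated at -0.0679 to 0.201, and best with their own number in 1 of 6. The call of EGLN1 ended in the fit of the compared groups alone and in the likelihood ratio test (highest adjusted p 0.0523), and the cause was not tested. Leaving out 1 library turned the sign of HBQ1 (-0.0049 to 0.26 on the log2 scale), HEMGN (-0.15 to 0.31) and NCF4 (-0.036 to 0.32), none of which passed in any fit.

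The VRC minus RTN count of 18 was 84 with DESeq2, 2 with the compared groups alone and 123 with the goat as a block. The VRC minus NTS count of 0 was 54 with DESeq2 and 76 with that block. Between 24 h and 7 d of room air 757 genes became 368, and between 3 h of CO2 and 7 d of room air 1747 became 961, with the compared groups alone. The site contrast of room air gave 2 genes with DESeq2. Other counts stayed within 1.5 times. Depth limits low genes such as MFAP5 and GPR179, and only genes with a linked symbol can be named.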
